A study of Mus musculus with 15 samples.

Results

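The unfolded protein response genes described here are Hspa5, Sdf2l1, Ddit3, Atf4, Xbp1, Herpud1, Dnajb9, Hsp90b1, Creld2 and Trib3, found by symbol among the array probe sets that carry a single gene symbol. All 10 of the 10 listed genes were found, each with 1 probe set, among 22180 genes in all. They were followed in carotid arteries of female C57Bl/6J mice aged 21 to 22 weeks whose left common carotid artery had been ligated, an operation that stops flow and leads to growth of a neointima. Ligated and unligated control arteries were taken 5 days after surgery from wildtype mice and from mice deficient in Has3, the gene of an enzyme that makes the matrix sugar polymer hyaluronan. The groups held 4 wildtype non-ligated, 4 wildtype ligated, 4 Has3-deficient non-ligated and 3 Has3-deficient ligated samples, 15 arrays in all. The sources used here do not name the Has3 allele or the cells that lack it. Whether each sample was a separate animal is not stated, so the p-values speak only to the spread among these samples, and the number of arrays limits the precision.

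The endoplasmic reticulum (ER) folds and modifies secreted and membrane proteins. When unfolded proteins accumulate there, the sensors IRE1 (gene Ern1), PERK (Eif2ak3) and ATF6 signal to the nucleus. ATF6 and the spliced form of XBP1 raise genes of chaperones and of ER-associated degradation, while PERK phosphorylates the initiation factor eIF2α, which slows most translation but favours that of ATF4. ATF4 also answers other eIF2α kinases, in what is called the integrated stress response, and with long stress raises DDIT3 (CHOP) and TRIB3. Cells that secrete much protein, such as matrix-forming smooth muscle cells and plasma cells, use the same genes at rest. The arrays give 1 value per gene and do not separate spliced from unspliced Xbp1, nor do they measure protein or phosphorylation.

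The start of each gene was read first, because ATF6 and XBP1 act through short ER stress response elements near the start site. RefSeq promoters (assembly GRCm38.p6), each 250 bases before and 50 after the annotated start, were found for all 10 genes. Both strands were searched for the element ERSE, which is CCAAT and CCACG with 9 free bases between them, and for ERSE-II, which is ATTGG and CCACG with 1 free base between them. ERSE was held by 3 of the 10 promoters, against 39 of 32851 promoters of the same length (0.119%). ERSE-II was held by 1 of the 10, against 12 of all (0.0365%). The element UPRE, TGACGTGG, was in none of the 10 and in 222 of all (0.676%). The C/EBP-ATF element of ATF4 targets, TGATGNAA, was in 2 of the 10 and in 1304 of all (3.97%). The core CCACG alone was in 7 of the 10 and in 10765 of all (32.8%), counting those inside ERSE, ERSE-II and UPRE. ERSE and ERSE-II were first described in promoters of genes of this response. Their higher share among the 10 is therefore not an independent result. A match is a run of letters and not a measured binding site.

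The 4 stretches that hold an ERSE or ERSE-II are given 5′ to 3′ on the strand of the gene, with each ERSE, ERSE-II or C/EBP-ATF match in capitals, because 2 of these genes rose with ligation in both genotypes and the other two did not pass.
Hspa5, chr2:34772010-34772058, plus strand: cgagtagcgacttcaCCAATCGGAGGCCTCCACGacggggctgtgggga
Creld2, chr15:88819505-88819553, plus strand: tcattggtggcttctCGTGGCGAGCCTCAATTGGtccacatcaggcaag
Hsp90b1, chr10:86705518-86705671, minus strand: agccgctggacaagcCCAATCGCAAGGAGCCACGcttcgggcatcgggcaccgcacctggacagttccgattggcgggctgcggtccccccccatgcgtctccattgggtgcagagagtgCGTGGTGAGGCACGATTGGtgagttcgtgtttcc
Herpud1, chr8:94386302-94386402, plus strand: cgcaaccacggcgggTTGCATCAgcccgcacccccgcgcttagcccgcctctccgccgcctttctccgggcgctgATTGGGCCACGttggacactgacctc
The Hspa5 element lies on the gene's own strand from position -65 to -47, counted from the start site. The Creld2 element reads on the opposite strand, from -126 to -108. Hsp90b1 holds 1 element in each orientation, from -212 to -194 and from -107 to -89. Herpud1 holds ERSE-II from -52 to -42 and, on the opposite strand, a C/EBP-ATF match from -112 to -105. Trib3 holds a C/EBP-ATF match on the opposite strand at positions 15 to 22, just inside the transcript. Sdf2l1, Atf4 and Dnajb9 held only the core CCACG in this window, and Xbp1 and Ddit3 held none of the motifs.

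**Figure D1:**
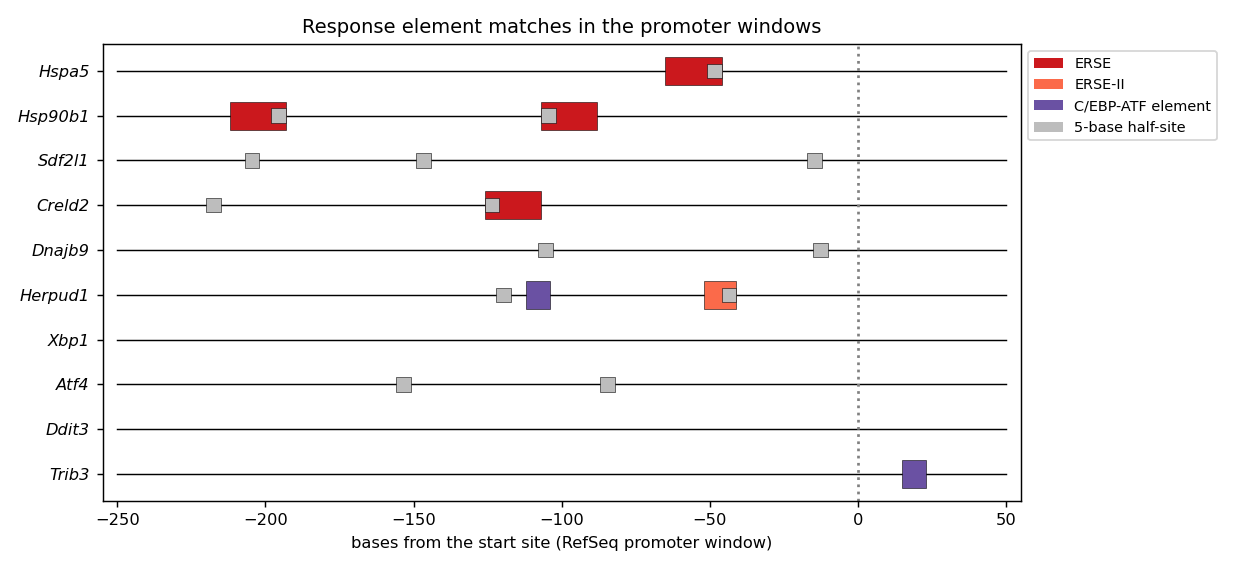
Motif matches in the promoters of the 10 genes, with position in bases from the annotated start site on the horizontal axis and 1 line per gene. Full ERSE matches are in Hspa5, Creld2 and Hsp90b1, and the ERSE-II match is in Herpud1.

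Every value below is on the log2 scale, relative to the median of that gene's own probe set over the 15 arrays. A value of 0 is therefore the middle array and says nothing of the gene's level, and genes cannot be compared by level. Changes are log2 differences between group means with their standard error (SE), from 1 limma fit of all 4 groups, and passing means an adjusted p under 0.05, by Benjamini-Hochberg over the 22180 genes. The Has3 probe set was not lower in the arrays labelled Has3-deficient, with a difference of 0.09 ± 0.14 without ligation (adjusted p = 0.853) and -0.20 ± 0.16 with it (adjusted p = 1.0). The sources used here do not place this probe set relative to the altered part of Has3, so it does not check the labels. Of the non-ligated arrays, wildtype arrays 1 and 2 and Has3-deficient arrays 1, 3 and 4 stood apart with a mean above 1 for a list of fat genes or of neuron and chromaffin genes, and no ligated array did. The highest such mean was 4.25, for the neuron and chromaffin genes in Has3-deficient array 3.

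Ligation raised Hspa5, Sdf2l1, Creld2 and Xbp1 in both genotypes, while the chaperone gene Hsp90b1, the cochaperone gene Dnajb9, Herpud1, Ddit3 and Trib3 passed in neither. The Xbp1 call in Has3-deficient arteries was fragile. It was lost in 15 of 23 alternative analyses, also on leaving out any 1 array of that genotype. In wildtype arteries 5 of the 10 genes rose (Hspa5, Sdf2l1, Creld2, Xbp1 and Atf4) and 0 fell, where 13.2% of all genes tested rose and 14.6% fell. In Has3-deficient arteries 4 of the 10 rose, which are 4 of the same 5 without Atf4, and 0 fell, where 10.2% of all genes rose and 8.08% fell. The median change of the 10 genes was 0.21 in both genotypes, beside 0.01 and -0.03 over all genes. Leaving out Has3-deficient ligated array 5 left 2 risen genes there (Creld2 and Sdf2l1), and leaving out array 6 left 1 (Sdf2l1). Without the 5 non-ligated arrays high in fat or neuronal genes, Creld2, Hspa5 and Sdf2l1 rose in wildtype arteries, and Atf4 and Xbp1 lost their calls. That leaves 1 Has3-deficient non-ligated array, without a spread of its own, so no count is given for that genotype. In wildtype arteries all ligated arrays lay above all non-ligated arrays for 5 of the 10 genes (14.0% of all genes) and below for 0 (16.0%). In Has3-deficient arteries they lay above for 3 (13.0%) and below for 1, Herpud1 (13.4%).

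Hspa5 encodes BiP, the main Hsp70 chaperone of the ER, which also holds the stress sensors inactive. Its values were -0.21, -0.38, -0.08 and -0.34 in wildtype non-ligated arteries and 0.24, 0.33, 0.07 and 0.20 in wildtype ligated ones. In Has3-deficient arteries they were -0.46, -0.38, -0.17 and 0.04 without ligation and 0.00, 0.30 and 0.41 with it. The wildtype groups did not overlap, while Has3-deficient non-ligated array 4 lay above the lowest ligated array. Hspa5 rose by 0.46 ± 0.12 in wildtype arteries (1.37-fold, limma adjusted p = 0.00796) and by 0.48 ± 0.12 in Has3-deficient arteries (1.4-fold, adjusted p = 0.0146). The call in Has3-deficient arteries was lost without ligated array 5 (adjusted p = 0.0604), without array 6 (adjusted p = 0.079) and in a fit of only the groups compared (adjusted p = 0.0767).

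Sdf2l1 encodes a partner of BiP and its J-domain cochaperones that helps to keep unfolded proteins soluble, and it changed more than any other of the 10 genes. Its values were -0.56, -0.72, -0.42 and -0.66 in wildtype non-ligated arteries and 0.40, 0.16, 0.00 and 0.34 in ligated ones. The Has3-deficient values were -0.64, -0.67, 0.00 and -0.29 without ligation and 0.44, 0.50 and 0.55 with it. All ligated arrays lay above all non-ligated ones in both genotypes. The value of 0.00 without ligation belongs to array 3, the array highest in neuronal genes. Sdf2l1 rose by 0.82 ± 0.14 in wildtype arteries (1.76-fold, limma adjusted p = 0.00036) and by 0.90 ± 0.15 in Has3-deficient arteries (1.86-fold, adjusted p = 0.000531). Of all genes, 4.94% and 3.96% had a higher change in the respective comparisons.

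Creld2 encodes an ER protein with disulfide isomerase activity that is also secreted. Its values were -0.31, -0.55, -0.12 and -0.48 in wildtype non-ligated arteries and 0.25, 0.00, 0.01 and 0.08 in ligated ones. Has3-deficient arteries gave values that were -0.31, -0.29, -0.43 and 0.04 without ligation and 0.18, 0.17 and 0.36 with it. The groups did not overlap in either genotype, and Has3-deficient array 4 was again the highest without ligation. Creld2 rose by 0.45 ± 0.11 in wildtype arteries (1.37-fold, limma adjusted p = 0.00599) and by 0.49 ± 0.12 in Has3-deficient arteries (1.4-fold, adjusted p = 0.0102). Without Has3-deficient ligated array 6 the adjusted p was 0.0528.

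Hsp90b1 encodes GRP94, the Hsp90 of the ER, and shows how small a separation the test left uncalled. Its values ran from -0.22 to -0.01 in wildtype non-ligated arteries and from 0.00 to 0.15 in ligated ones, so the wildtype groups did not overlap. In arteries deficient in Has3 they ran from -0.23 to 0.06 without ligation and from 0.04 to 0.15 with it. The change was 0.16 ± 0.07 in wildtype arteries (limma adjusted p = 0.0984) and 0.21 ± 0.07 in Has3-deficient arteries (adjusted p = 0.0583), and neither passed. Without Has3-deficient non-ligated array 4, the only one above 0, it passed there (adjusted p = 0.0138).

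Dnajb9 encodes ERdj4, a cochaperone that brings BiP to IRE1 and is a classic target of spliced XBP1. Its values ran from 0.10 to 0.20 in wildtype non-ligated arteries and from -0.20 to 0.14 in ligated ones. The Has3-deficient values ran from -0.32 to 0.11 without ligation and from -0.33 to 0.00 with it. The groups overlapped in both genotypes. The change was -0.16 ± 0.10 (limma adjusted p = 0.278) in wildtype arteries and 0.01 ± 0.11 (adjusted p = 0.976) in Has3-deficient arteries.

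Herpud1, which encodes a membrane protein that organises the ER-associated degradation machinery, had the lowest change of the 10 genes in both genotypes. Its values were 0.00, 0.39, -0.04 and 0.49 in wildtype non-ligated arteries and -0.32, 0.05, -0.33 and 0.01 in ligated ones. Has3-deficient arteries gave values that were 0.58, 0.41, -0.09 and 0.17 without ligation and -0.15, -0.11 and -0.16 with it. All Has3-deficient ligated arrays lay below all non-ligated ones, while the wildtype groups overlapped. The change was -0.36 ± 0.15 in wildtype arteries (limma adjusted p = 0.104) and -0.41 ± 0.16 in Has3-deficient arteries (adjusted p = 0.106), and neither passed. Without Has3-deficient non-ligated array 3 the latter passed (adjusted p = 0.0265). Of all genes, 86.8% and 91.4% had a higher change than Herpud1. Of the genes with an ERSE, Hspa5 and Creld2 rose, while Hsp90b1, which holds 2 such elements, did not pass in either genotype, and neither did Herpud1 with its ERSE-II.

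Xbp1 encodes the transcription factor whose mRNA is spliced by IRE1. Its values were -0.11, -0.20, -0.04 and -0.12 in wildtype non-ligated arteries and 0.38, 0.12, 0.21 and 0.02 in ligated ones. In arteries deficient in Has3 they were -0.06, 0.00, -0.09 and -0.08 without ligation and 0.25, 0.14 and 0.13 with it. The groups did not overlap in either genotype. Xbp1 rose by 0.30 ± 0.07 in wildtype arteries (1.23-fold, limma adjusted p = 0.00437) and by 0.23 ± 0.07 in Has3-deficient arteries (1.17-fold, adjusted p = 0.0443). The second call was lost in 15 of 23 alternative analyses, so it stands close to the threshold.

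Atf4 encodes the transcription factor of the PERK arm, which is controlled mainly through its translation. Its values were -0.26, -0.18, -0.15 and 0.00 in wildtype non-ligated arteries and 0.14, 0.27, -0.07 and 0.10 in ligated ones. The Has3-deficient values were -0.24, -0.10, -0.22 and 0.03 without ligation and 0.01, 0.10 and 0.05 with it. The groups overlapped by 1 array on the non-ligated side in each genotype. Atf4 rose by 0.26 ± 0.08 in wildtype arteries (1.19-fold, limma adjusted p = 0.0272), and this call was lost in 8 of 24 alternative analyses. In Has3-deficient arteries the change was 0.19 ± 0.09 (adjusted p = 0.175).

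Ddit3 encodes CHOP, the factor of ER stress that favours cell death. Its values ran from -0.09 to 0.24 in wildtype non-ligated arteries and from -0.05 to 0.24 in ligated ones. In Has3-deficient arteries they ran from -0.53 to 0.38 without ligation and from -0.04 to 0.06 with it. The ligated arrays lay within the range of the non-ligated ones in both genotypes. The change was 0.00 ± 0.15 in wildtype arteries (limma adjusted p = 0.993) and 0.00 ± 0.17 in Has3-deficient arteries (adjusted p = 0.995). The lowest value, -0.53, was that of Has3-deficient array 3, and without it the change in that genotype was -0.18 (adjusted p = 0.341).

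Trib3, a pseudokinase gene induced by ATF4 and CHOP, ran from -0.14 to 0.00 in wildtype non-ligated arteries and from -0.14 to 0.35 in ligated ones. In Has3-deficient arteries it ran from -0.21 to 0.23 without ligation and from 0.00 to 0.30 with it. The groups overlapped in both genotypes. The change was 0.13 ± 0.11 (limma adjusted p = 0.459) in wildtype arteries and 0.21 ± 0.12 (adjusted p = 0.276) in Has3-deficient arteries.

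**Figure D2:**
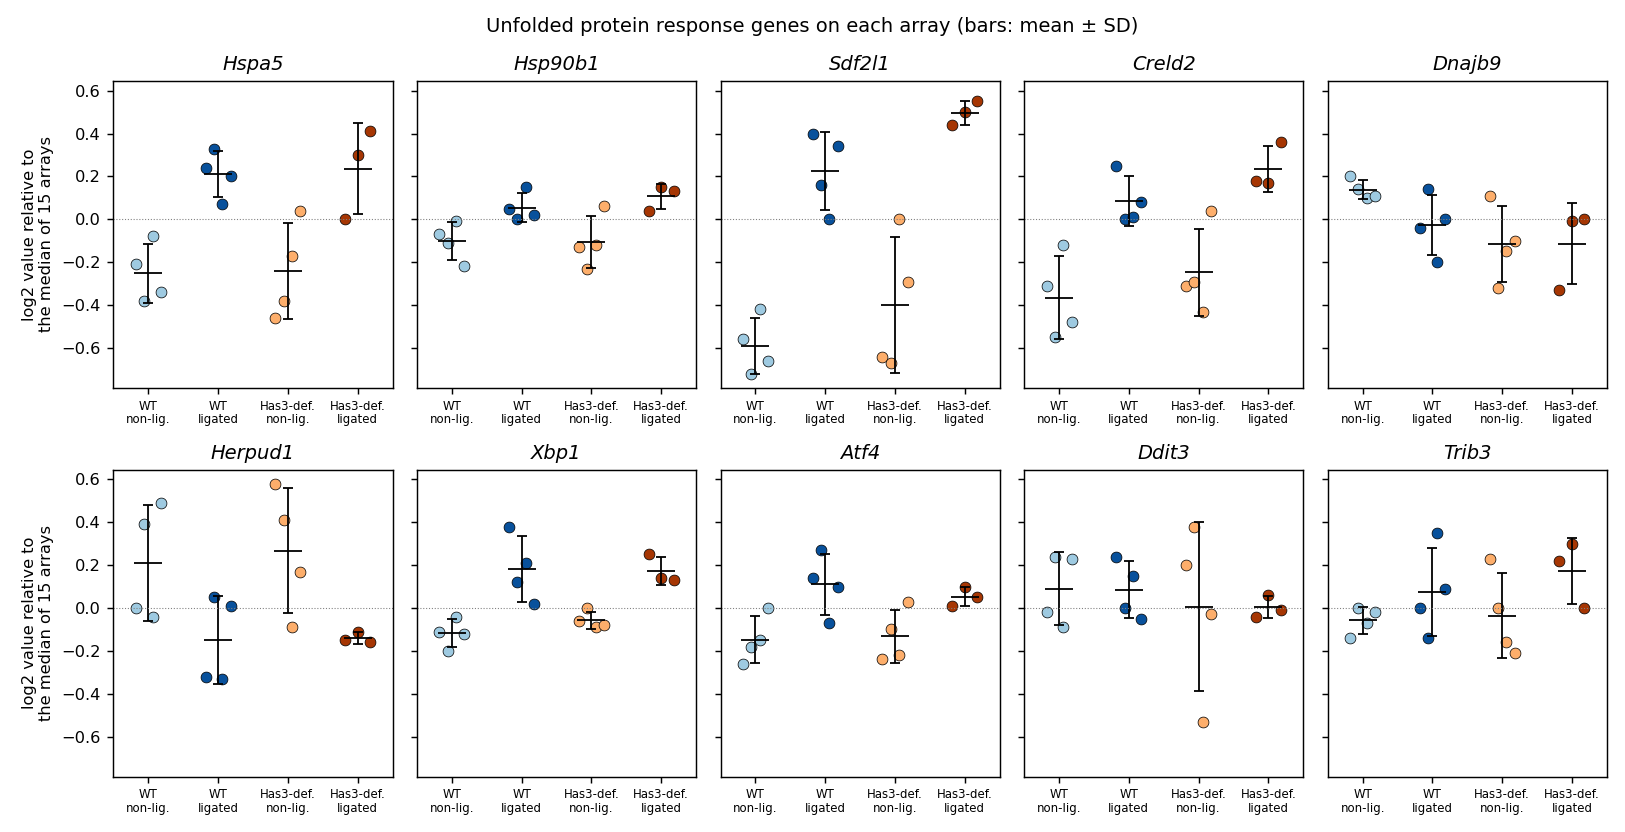
Value of each of the 10 genes on each of the 15 arrays, as log2 relative to the gene's own median over the arrays, with 1 panel per gene, 1 point per array and each group's mean ± SD (WT, wildtype). Sdf2l1, Creld2 and Xbp1 show all ligated arrays above all non-ligated arrays in both genotypes, while the Ddit3 groups overlap.

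These are whole arteries, so more cells of a type that uses a gene and more of its RNA per cell cannot be told apart. Marker genes of several cell types moved with ligation at the same time, and cells were not counted. All 10 macrophage markers rose in both genotypes, by a median of 2.13 and 2.47, and the mean of the list ran from -1.26 to -0.14 over the non-ligated arrays and from 1.91 to 2.20 over the ligated ones. All 8 neutrophil markers rose in both genotypes, by a median of 3.44 and 3.40, with list means from -1.12 to -0.18 without ligation and from 1.88 to 2.99 with it. Smooth muscle markers fell, 9 of 10 in wildtype arteries and 10 of 10 in the other genotype (medians -1.08 and -0.66), and their list mean ran from -0.03 to 0.53 without ligation and from -0.91 to -0.34 with it. All 11 mitosis genes rose in both genotypes (medians 1.39 and 1.27), with list means from -0.43 to -0.14 without ligation and from 0.98 to 1.44 with it. Of 10 markers of B and plasma cells, a cell type with a large ER, 1 rose in each genotype, with list means from -0.11 to 0.06 without ligation and from 0.00 to 0.13 with it. Which markers are at 0 cannot be read from values centred per probe set. The part of these cells in the changes of the 10 genes was not tested.

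The second question of the design, whether Has3 deficiency altered these genes, gave no passing gene among the 10. In limma's comparison of non-ligated arteries, 0 of the 10 passed, where 0.0857% of all genes did. In ligated arteries 0 of the 10 passed, beside 0% of all genes, and the same holds for the difference between the 2 ligation responses (0 of 10, 0% of all genes). At an unadjusted p under 0.05 the counts were 1 of the 10 and 2979 of all genes without ligation, 0 and 910 with it, and 0 and 1802 for the difference of responses. The 1 gene was Dnajb9, which ran from 0.10 to 0.20 in wildtype and from -0.32 to 0.11 in Has3-deficient non-ligated arteries. Its difference, Has3-deficient minus wildtype, was -0.25 ± 0.10 (limma unadjusted p = 0.0223, adjusted p = 0.284). On the same non-ligated arrays all 11 neuron and chromaffin genes had a higher mean in Has3-deficient arteries (median difference 1.43), though 0 passed. The part of such tissue in the genotype differences was not tested.

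The intervals show what these arrays leave possible. For Hspa5 the difference between genotypes was 0.01 without ligation (95% interval -0.24 to 0.26) and 0.03 with it (-0.24 to 0.30). For Sdf2l1 it was 0.19 (-0.10 to 0.48) without ligation and 0.27 (-0.04 to 0.59) with it. The 3 Has3-deficient ligated arrays, at 0.44, 0.50 and 0.55, all lay above the 4 wildtype ligated ones, which 3.55% of all genes did, but the test did not pass (limma adjusted p = 1.0). For Ddit3 the difference was -0.08 in both artery states, with intervals from -0.41 to 0.25 and from -0.44 to 0.27. The ligation response of Hspa5 was 0.02 higher in Has3-deficient than in wildtype arteries (-0.34 to 0.39), that of Sdf2l1 0.08 higher (-0.35 to 0.51) and that of Creld2 0.03 higher (-0.31 to 0.38). The intervals of the difference of responses include 0 for all 10 genes. They reach 0.39 for Hspa5 and 0.38 for Creld2, beside ligation responses of 0.46 and 0.45 in wildtype arteries.

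**Figure D3:**
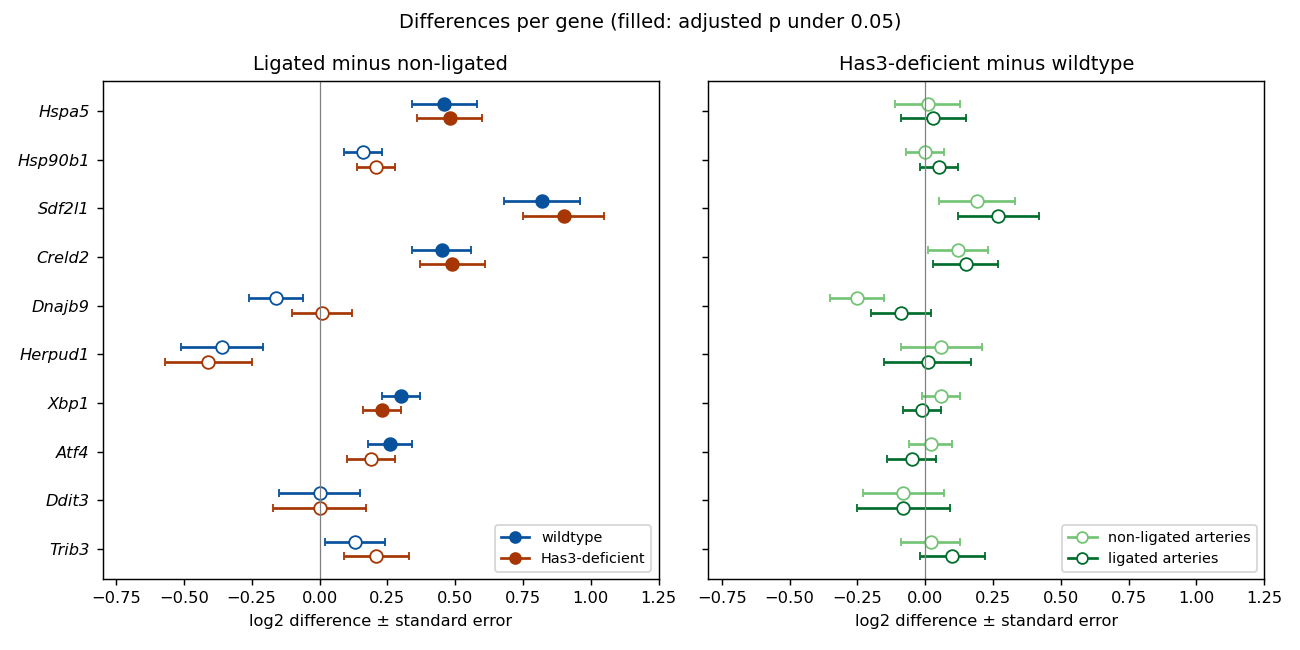
Log2 difference ± SE of each of the 10 genes, ligated minus non-ligated on the left and Has3-deficient minus wildtype on the right, with filled points for an adjusted p under 0.05. Filled points appear only on the left, 5 of them for wildtype and 4 for Has3-deficient mice.

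The arrays of a group also differed among themselves, and some of the 10 genes went together in that spread. After the group means were taken away, Hspa5 correlated over the 15 arrays with its fellow ER genes Sdf2l1 (Pearson r = 0.64), Creld2 (0.64) and Hsp90b1 (0.59). Its correlation with Atf4 was 0.46 and with the ER cochaperone gene Dnajb9 0.36. With Xbp1 it was -0.14, with Ddit3 -0.46, with Herpud1 -0.44 and with Trib3 -0.75. The Hspa5 values moved little without Has3-deficient non-ligated array 3, to 0.75 for Sdf2l1 and 0.76 for Creld2. That array set the correlation of Sdf2l1 with Creld2, which was 0.33 with it and 0.88 over the other 14 arrays. It also lowered that of Sdf2l1 with Ddit3, which was -0.80 with it and -0.58 without. These are all 9 pairs with Hspa5 and 2 others chosen after their values were seen, out of 45 pairs. They are a description of arrays that share a normalization and differ in tissue makeup.

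Over all 15 arrays, group differences included, the genes most like Hspa5 in pattern were Pgap2 (Pearson r = 0.931), Gpr18 (0.917) and Dnajb11 (0.915), the last an ER cochaperone of BiP. Those most like Sdf2l1 were Fscn1 (0.951), B4galnt1 (0.947) and Ubash3b (0.946). Those most like Ddit3 were Fam50a (0.872), Gli3 (0.855) and Tbc1d1 (0.854). Much of each value for Hspa5 and Sdf2l1 is the ligation difference that the arrays have in common.

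The wider pathway was read from lists of other genes, none of them among the 10. Of the sensors, their relatives and the eIF2α kinases, 2 of 12 rose and 2 fell in each genotype, with a median change of 0.11 in wildtype and 0.13 in Has3-deficient arteries. Of all genes, 13.2% rose and 14.6% fell in wildtype arteries, and 10.2% rose and 8.08% fell in Has3-deficient arteries. With so few genes the counts of this list are not a result about it. The wildtype count of 4 ran from 1 to 5 over the alternatives. It was 1 without wildtype ligated array 3 and 2 without wildtype non-ligated array 2, 3 or 4 or any 1 of the Has3-deficient ligated arrays, and the Has3-deficient count of 4 was 2 without ligated array 3 or 6. Creb3l1, an ER-bound factor that raises collagen secretion genes, rose by 0.54 ± 0.15 in wildtype (limma adjusted p = 0.0159) and by 0.51 ± 0.17 in Has3-deficient samples. Its relative Creb3l2 changed by -0.50 ± 0.09 and -0.42 ± 0.10. Eif2ak2 (PKR), the eIF2α kinase that responds to double-stranded RNA and interferon, rose by 0.48 ± 0.17 (adjusted p = 0.0489) and 0.90 ± 0.18.

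Of 20 other ER chaperones and folding enzymes, 9 rose and 2 fell in wildtype arteries, and 7 rose and 1 fell in Has3-deficient arteries. Of all genes, 13.2% rose and 14.6% fell in the former and 10.2% rose and 8.08% fell in the latter. Without the arrays high in fat or neuronal genes 7 of the list passed in wildtype arteries in place of 11, and in Has3-deficient arteries 5 passed in place of 8 without ligated array 3 or 6. The medians were 0.22 and 0.21, and 6 genes rose in both. Ero1a, the oxidase that feeds disulfide bond formation, rose by 0.69 ± 0.12 in wildtype (limma adjusted p = 0.000412) and 0.58 ± 0.12 in Has3-deficient arteries. The disulfide isomerase Pdia6 rose by 0.61 ± 0.12 and 0.48 ± 0.13, and Pdia5 by 0.49 ± 0.12 and 0.61 ± 0.13. Cdnf, an ER-resident trophic factor, fell in both, with changes of -0.54 ± 0.09 in wildtype and -0.32 ± 0.10 in Has3-deficient arteries.

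Of 19 genes of ER import and export, 7 rose and 1 fell in wildtype and 6 rose and 0 fell in Has3-deficient arteries. Their medians were 0.12 and 0.15. Of all genes, 13.2% rose and 14.6% fell in wildtype arteries, and 10.2% rose and 8.08% fell in Has3-deficient arteries. Without wildtype non-ligated array 4, ligated array 1 or ligated array 4, 5 passed in wildtype arteries in place of 8. Ssr2, a subunit of the translocon-associated complex, rose by 0.70 ± 0.09 and 0.50 ± 0.09, and Ssr3, another subunit, by 0.22 ± 0.07 and 0.49 ± 0.07. Kdelr3 and Kdelr2 encode receptors that return escaped chaperones to the ER. Kdelr3 rose by 0.55 ± 0.11 in wildtype and 0.72 ± 0.12 in Has3-deficient arteries, and Kdelr2 by 0.42 ± 0.08 and 0.35 ± 0.09. Of 14 genes of ER-associated degradation, 3 rose and 1 fell in wildtype and 2 rose and 0 fell in Has3-deficient arteries, with medians of 0.08 and 0.05. These counts are near the shares of all genes (13.2% higher and 14.6% lower, and 10.2% and 8.08%) and are not a result about this list. Edem2 and Edem1, whose proteins help to send misfolded glycoproteins to degradation, rose by 0.54 ± 0.09 and 0.44 ± 0.06 in wildtype arteries. Os9 rose there by 0.37 ± 0.09. Edem2 and Edem1 rose in Has3-deficient arteries too, Edem2 by 0.60 ± 0.10 and Edem1 by 0.31 ± 0.07. The degradation gene that fell in wildtype arteries was Herpud2, a relative of Herpud1 named here after its value was seen, with a change of -0.24 ± 0.08 (limma adjusted p = 0.0359).

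Of 24 targets of ATF4 and the integrated stress response, 10 rose and 2 fell in wildtype and 6 rose and 2 fell in Has3-deficient arteries, with medians of 0.28 and 0.21, where 13.2% of all genes rose and 14.6% fell in wildtype and 10.2% and 8.08% in Has3-deficient arteries. Slc7a11, the cystine transporter that supplies glutathione synthesis, rose by 3.16 ± 0.16 in wildtype (limma adjusted p = 1.12e-08) and 2.79 ± 0.18 in Has3-deficient arteries. None of the 10 genes changed by as much. Cebpb, a transcription factor of inflammatory and stress responses, rose by 1.46 ± 0.17 and 1.23 ± 0.18. Vldlr, a lipoprotein receptor, changed by -1.62 ± 0.21 and -1.12 ± 0.23. Several of these targets are also genes of activated myeloid cells, whose markers rose on the same arrays, and their part in these changes was not tested. No gene of the lists passed in the genotype comparisons or in the difference of ligation responses.

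**Figure D4:**
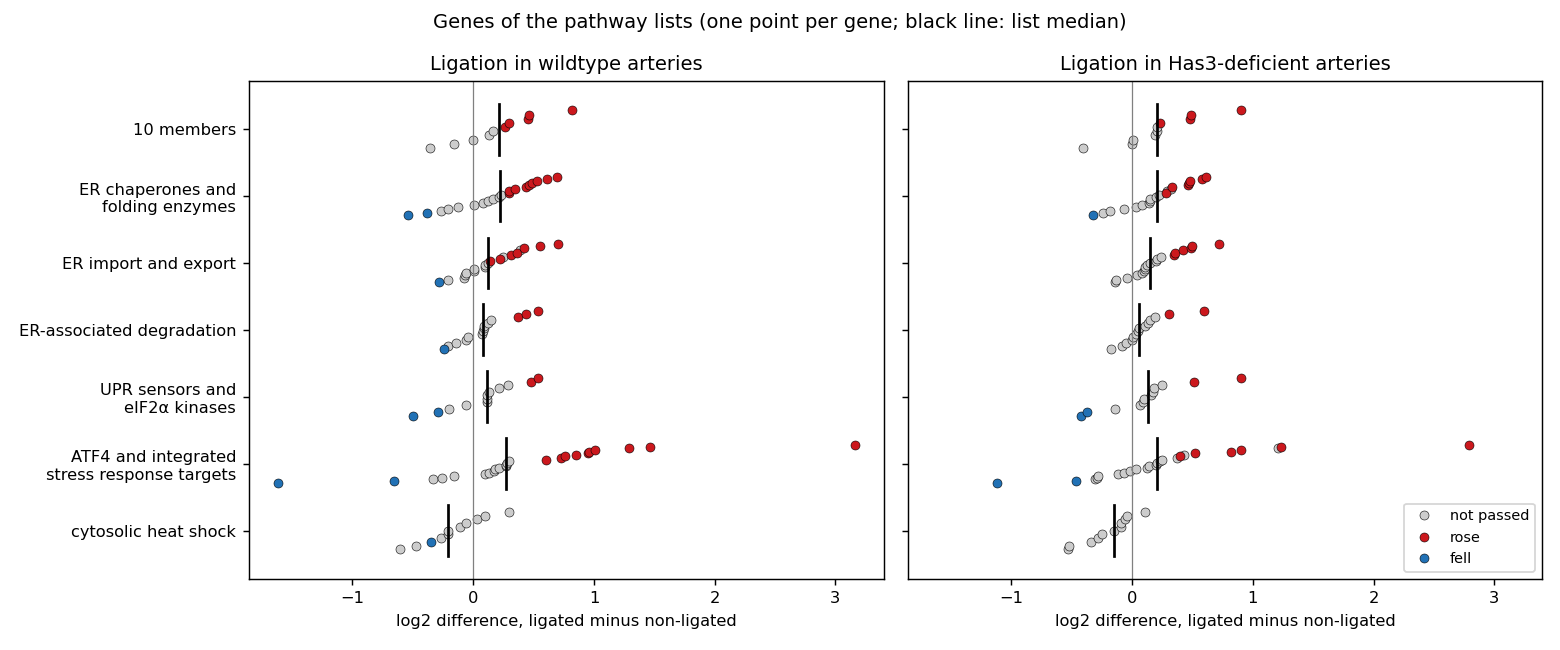
Log2 difference, ligated minus non-ligated, of each measured gene of the 10 and of 6 lists of related genes, with 1 point per gene, coloured where the adjusted p was under 0.05, and a black line at the list median. The ATF4 and integrated stress response list spreads widest, from -1.62 to 3.16 in wildtype arteries. No gene of the cytosolic heat shock list rose, where 13.2% of all genes rose in wildtype and 10.2% in Has3-deficient arteries. For a list of this size that is near the background.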

How the data were processed

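RNA was extracted with a tissue kit for microarrays, and 100 ng was amplified and labelled for Affymetrix arrays, per the labels' protocols. The deposited values are log2 numbers for 33793 probe sets on 15 arrays, the base being inferred from the numbers themselves. Every probe set has a median of 0 over the arrays, so levels are lost. The steps between stored numbers are those of uncentred numbers of 8 or more on all arrays for 7 of the 10 genes (not Sdf2l1, Ddit3 and Trib3), and for 3793 of the 23521 probe sets with 1 symbol. The sources used here do not give the normalization, the software or the build. Array medians ran from -0.0014 to 0.0167.

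Gene names came from the platform annotation. Of the probe sets, 23521 had 1 symbol, 1814 had several and 8458 had none or were unlisted; the last groups were not used. The mean was taken for 1082 genes with several probe sets, leaving 22180 genes. All 4 groups were fitted together in limma 3.58.1 (R 4.3.3), moderated by eBayes with 11 degrees of freedom from the residuals and 2.69 from the prior, and adjusted by Benjamini-Hochberg at 0.05. The fit was tested on simulated data.

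The 10 genes, the lists and the tests were chosen with earlier results of these data known. Genes of the lists were named by rule: up to 3 passing genes with the largest change per list and ligation comparison or, where none passed, the one with the lowest p. For Hspa5, Sdf2l1 and Ddit3 the 3 genes with the highest correlation were named, leaving out predicted, microRNA and snoRNA genes. Listed genes of which no probe set with 1 symbol was found were left out.

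The labels do not say that replicate numbers pair the arrays. After group means were removed, same-numbered wildtype arrays correlated at 0.028 to 0.164 and the one Has3-deficient pair at -0.058. Arrays of different numbers were not compared, so these values do not settle whether the numbers pair the arrays. The alternatives were quantile normalization, a common array median, array weights, a fit of only the groups compared, a robust prior, the probe set with the largest SD, a replicate-number block, leaving out each array in turn, and leaving out the 5 non-ligated arrays high in fat or neuronal genes. A block fitted to the wildtype arrays alone and the counts for the lists were added after the data were seen.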

Additional observations from a re-analysis of the deposited data

Results flagged for a closer look

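Among the 10 genes and 19 genes named from the lists, 87 groups of 4 arrays were checked for an array far from the rest of its group, of which chance marks about 1 in 20. None of the 10 genes had such an array, and 2 list genes did. Cebpb read -0.02 in wildtype non-ligated array 1 and -0.66 to -0.59 on the other arrays of that group; this array had the highest mean of the fat genes among wildtype arrays, 1.63. Ssr3, a subunit of the translocon-associated complex, read -0.10 in wildtype non-ligated array 4 and -0.02 to 0.00 on the others, a gap of small size in a group with little spread.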

How the results depend on the processing

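Over the alternatives, 1160 values of single genes among the 10 were recomputed. Of these, 1123 kept their side of the threshold, 31 lost a call, 6 gained one and 0 called values changed sign. Another 89 uncalled values changed sign. Many of the 1123 are values for genotype or for the difference of responses, uncalled throughout, so this number overstates how stable the calls were. Atf4 lost its wildtype call in 8 of 24 alternatives and Xbp1 in 1. In Has3-deficient arteries Xbp1 lost its call in 15 of 23, Hspa5 in 4, Creld2 in 2 and Sdf2l1 in 1. In wildtype arteries Sdf2l1, Hspa5 and Creld2 passed in 24 of 24 alternatives, with changes of 0.76 to 0.89, 0.42 to 0.51 and 0.39 to 0.53. The count of 5 changed genes there ran from 4 to 5 when 1 array was left out, and was 3 without the arrays high in fat or neuronal genes, which leaves 2 wildtype and 1 Has3-deficient non-ligated arrays, the latter assumed to vary like the other groups. In Has3-deficient arteries the count of 4 ran from 1 to 4 when 1 array was left out. With the replicate block it was 0 there, and 1535 of all genes passed in place of 4055; ligated arrays 5 and 6 share no number with a non-ligated array of their genotype, so array 3 alone bears on that change within the block. Hspa5 there changed by 0.21 with the block (adjusted p = 0.686). In wildtype arteries the block left 5 genes, and 5370 of all genes in place of 6173. Fitted to the wildtype arrays alone it also gave 5, with Herpud1 in (adjusted p = 0.00704) and Atf4 out (0.0758). Herpud1 in Has3-deficient arteries passed with array weights (0.0235), and Hsp90b1 with array weights (0.025) and quantile normalization (0.041). Counts for genotype and for the difference of responses stayed at 0 of 10 under every alternative run. List counts in Has3-deficient arteries fell to 0 with the block for chaperones, import and export, degradation and sensors, and to 3 of 24 for ATF4 targets. There too array 3 is the only ligated array of that genotype that bears on the change. Small changes near 0.2 log2 units, such as that of Hsp90b1, lie at the limit of this number of arrays.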

Other observations

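Cytosolic heat shock genes answer unfolded protein outside the ER. Of 11 measured genes 0 rose and 1 fell in wildtype arteries, with a median change of -0.21, and 0 rose and 0 fell in Has3-deficient arteries, with a median of -0.15. Of all genes 13.2% rose and 14.6% fell in wildtype arteries, and 10.2% rose and 8.08% fell in Has3-deficient arteries. For a list of this size these counts lie near the background. The wildtype count of 1 ran from 0 to 3 over the alternatives. It was 0 without wildtype non-ligated array 3, ligated array 2 or ligated array 3, and 2 without ligated array 4. The gene that fell was Hspb1, a small heat shock protein abundant in muscle, by 0.35 log2 units (± 0.12 SE, limma adjusted p = 0.0381). In Has3-deficient arteries the lowest p belonged to Hsph1, with a change of -0.53 ± 0.21 (limma adjusted p = 0.0954). The list mean was highest in 1 non-ligated array of each genotype, array 4 in both, at 0.42 in wildtype and 0.39 in Has3-deficient arteries, and ran from -0.10 to 0.17 in the other non-ligated arrays and from -0.31 to 0.11 in the ligated ones. Smooth muscle markers fell on the same ligated arrays, and their part in these values was not tested.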
